A study of Mus musculus with 7 samples.

Results

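S100a4, S100a6, S100a10, S100a11, Anxa1, Anxa2, Lgals1, Lgals3, Vim and Ahnak, which encode calcium-binding, lectin, filament and scaffold proteins abundant in activated and effector leukocytes, were followed across lymph nodes that drain the pancreas, the gut and the skin. These 10 genes were chosen from earlier results of the same arrays, because S100a4, S100a6, Lgals1 and Vim read higher in the inguinal node, so their values against that node are a description and carry no test. They were found by gene name or transcript among the non-control probes, which gave 16 probes of the 41174 on the array and 10 of the 29897 genes and unnamed probes tested. RNA of pancreatic lymph nodes (PLN) was labelled with the red dye Cy5 on each of 7 dual-dye Agilent arrays and hybridised with Cy3-labelled, green RNA of another node. The other node was mesenteric (MLN, draining the gut) on 4 arrays, from BALB/c, FVB, NOD and NOD.B10 mice, and inguinal (ILN, which receives lymph from skin and mammary fat) on 3 arrays, from FVB, NOD and NOD.B10 mice. All mice were untreated females 12 weeks old with no engineered allele named, and the RNA in a channel came from 5 pooled mice of the same strain. The NOD strain is prone to autoimmune diabetes, NOD.B10 carries another major histocompatibility complex on the NOD background, and BALB/c and FVB are strains without that disease. The strain entry of the NOD.B10 arrays reads NOD, whereas their titles and sources read NOD.B10, and the latter were followed. Whether the PLN pool of a strain was the same on its MLN and ILN arrays is not stated by the labels.

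The S100 proteins are small dimeric calcium sensors that bind target proteins when calcium rises. S100a4 binds non-muscle myosin and is a feature of motile cells, memory T cells and myeloid cells, S100a6 is found in fibroblasts and cycling or activated cells, and S100a10 and S100a11 form complexes with the annexins A2 and A1. Annexins bind membranes in a calcium-dependent way, galectins bind beta-galactoside sugars on glycoproteins, vimentin is the intermediate filament of leukocytes and mesenchymal cells, and Ahnak is a giant scaffold protein beneath the plasma membrane that binds the annexin A2 and S100a10 complex. In lymph nodes most lymphocytes are naive and hold little of several of these transcripts, whereas effector and memory lymphocytes, myeloid cells and stroma hold more. In bulk node RNA, fewer cells of a type and less RNA per cell cannot be told apart.

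The stretch of 250 bases before the transcription start is shown for S100a4, S100a6 and Vim, which read clearly higher in ILN, and for S100a11, a family member on the same chromosome that did not. RefSeq promoters of build GRCm38.p6 matched 8 of the 10 members, and capitals mark each match of a searched motif on either strand.
S100a4, chr3:90603520-90603769, plus strand: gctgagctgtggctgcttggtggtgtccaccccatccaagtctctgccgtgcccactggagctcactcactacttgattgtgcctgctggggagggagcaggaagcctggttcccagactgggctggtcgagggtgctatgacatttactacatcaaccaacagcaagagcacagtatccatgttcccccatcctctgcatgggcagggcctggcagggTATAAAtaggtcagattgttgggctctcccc
S100a6, chr3:90612644-90612893, plus strand: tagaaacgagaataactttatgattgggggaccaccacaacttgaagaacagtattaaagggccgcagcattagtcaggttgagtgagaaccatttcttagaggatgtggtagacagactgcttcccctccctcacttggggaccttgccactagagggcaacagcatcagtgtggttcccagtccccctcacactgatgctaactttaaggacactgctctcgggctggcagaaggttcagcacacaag
S100a11, chr3:93520246-93520495, plus strand: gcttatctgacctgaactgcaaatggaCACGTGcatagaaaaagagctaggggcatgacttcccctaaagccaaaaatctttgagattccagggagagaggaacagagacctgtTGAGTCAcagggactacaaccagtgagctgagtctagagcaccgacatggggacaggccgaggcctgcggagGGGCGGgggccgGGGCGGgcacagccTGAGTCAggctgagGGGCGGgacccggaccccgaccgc
Vim, chr2:13574061-13574310, plus strand: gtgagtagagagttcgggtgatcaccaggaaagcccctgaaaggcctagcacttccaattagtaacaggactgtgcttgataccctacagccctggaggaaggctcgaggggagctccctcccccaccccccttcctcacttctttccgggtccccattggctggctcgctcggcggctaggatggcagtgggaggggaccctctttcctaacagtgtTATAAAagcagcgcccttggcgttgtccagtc
The motifs were TGANTCA for the AP-1 site, GGGCGG for the GC box, TATAAA for the TATA box and CACGTG for the E-box, and no pair of them overlaps in these 4 sequences. The S100a4 and Vim stretches hold a TATA box whose first base lies 31 and 32 bases before the start. The S100a11 stretch holds 2 AP-1 sites, 3 GC boxes and 1 E-box, and the S100a6 stretch holds none of the 4 motifs. Of members not shown that read higher in ILN, Anxa2 has 1 AP-1 site, 3 GC boxes and 1 TATA box, and Ahnak has 3 GC boxes. Anxa1 has 1 TATA box and Lgals3 has 1 GC box. Over the 8 members with a promoter, 4 held a TATA box, 4 a GC box, 2 an AP-1 site and 1 an E-box. Among all 32841 promoters of the table the shares were 12.4% for the TATA box, 32.7% for the GC box, 6.75% for the AP-1 site and 6.02% for the E-box. All 4 S100 members lie on chromosome 3, in 2 groups. Only S100a5 stands between S100a4 and S100a6 in the RefSeq order, S100a11 and S100a10 are direct neighbours, and 59 protein-coding genes separate S100a6 from S100a11.

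All 10 genes gave bright spots. Of the 16 probes, 15 were well above background in both channels of every array, and no spot of a member was saturated or marked as an outlier. The exception was 1 of the 6 Ahnak probes, A_51_P278675, which was well above background in 1 of 7 PLN, 2 of 4 MLN and 2 of 3 ILN channels. Over all probes, the share well above background was 45.9% to 59.0% for PLN and 50.7% to 88.9% for the other node, at median spot signals of 68.0 to 105 and 86.1 to 199 intensity units. T and B cell genes, the defining transcripts of a lymph node, were well above background in every ILN channel for 9 of 9 and 9 of 9 measured genes. The BALB/c and NOD arrays of the MLN were read on an earlier scanner and the other 5 arrays on a later one. Replicates of a node pair are pools of different strains, so the spread between arrays is a spread between strains, and the small number of arrays limits precision.

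PLN and ILN were set against each other on 3 arrays, on which 9 of the 10 members were lower in PLN on every array. Of all genes measured on these arrays 23% read below 0 on all 3, and nothing is read from the members' count because they were picked for high ILN values. The median log2 ratio of the members, PLN over ILN, was -0.46, and that of all genes tested was -0.0031. S100a6 stood lowest, with a log2 ratio of -1.07 in FVB, -0.92 in NOD and -1.04 in NOD.B10. Its mean was -1.01 ± 0.08 (SD, n = 3), a level 2.01-fold higher in ILN, and 0.0167% of the genes tested had a lower ratio. S100a4 read -0.91 in FVB, -0.43 in NOD and -0.54 in NOD.B10. All 3 arrays were below 0 and the FVB array was the lowest, with a mean of -0.63 ± 0.25 (SD, n = 3), or 1.55-fold more in ILN.

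The other S100 members went separate ways. S100a10 read -0.32 in FVB, -0.33 in NOD and -0.39 in NOD.B10, which lie within a narrow band around a mean of -0.34 ± 0.04 (SD, n = 3). S100a11 read 0.06 in FVB, 0.16 in NOD and 0.08 in NOD.B10. It was the only member above 0, on each of the 3 arrays, at a mean of 0.10 ± 0.05 (SD, n = 3), and it fell to 0.0032 in the authors' deposited values. So the adjacent genes S100a10 and S100a11 did not share a direction against ILN.

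Of the annexins, Anxa1, which restrains inflammation in neutrophils and macrophages, read -0.30 in FVB, -0.46 in NOD and -0.41 in NOD.B10. Anxa2, which organises actin at membranes, read -0.16, -0.16 and -0.22 in the same order. Both stayed below 0 with little spread, at means of -0.39 ± 0.08 and -0.18 ± 0.03 (SD, n = 3), and the second Anxa2 probe gave -0.21 ± 0.03. Lgals1, which encodes galectin 1, a galectin that dampens T cell responses, read -0.45 in FVB, -0.82 in NOD and -0.66 in NOD.B10. Lgals3, an abundant galectin of macrophages, read -0.43, -0.19 and -0.32. The 2 galectins thus ordered the strains in opposite ways, with NOD the lowest for Lgals1 and the highest for Lgals3, and their means were -0.64 ± 0.19 and -0.31 ± 0.12 (SD, n = 3).

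Vim, the vimentin gene, read -0.58 in FVB, -0.53 in NOD and -0.77 in NOD.B10, for a mean of -0.62 ± 0.13 (SD, n = 3) and 1.54-fold more in ILN. Ahnak read -0.49, -0.51 and -0.56, with the mean at -0.52 ± 0.04. Ahnak is covered by 6 probes, and the mean of each was below 0, from -0.52 for the brightest, which stands for the gene, to -0.08 for the probe that was mostly not above background. When all 6 were averaged, the Ahnak mean was -0.32. The 2 probes assigned to another Ahnak transcript, A_52_P496566 and A_52_P382325, gave -0.31 and -0.15.

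**Figure D1:**
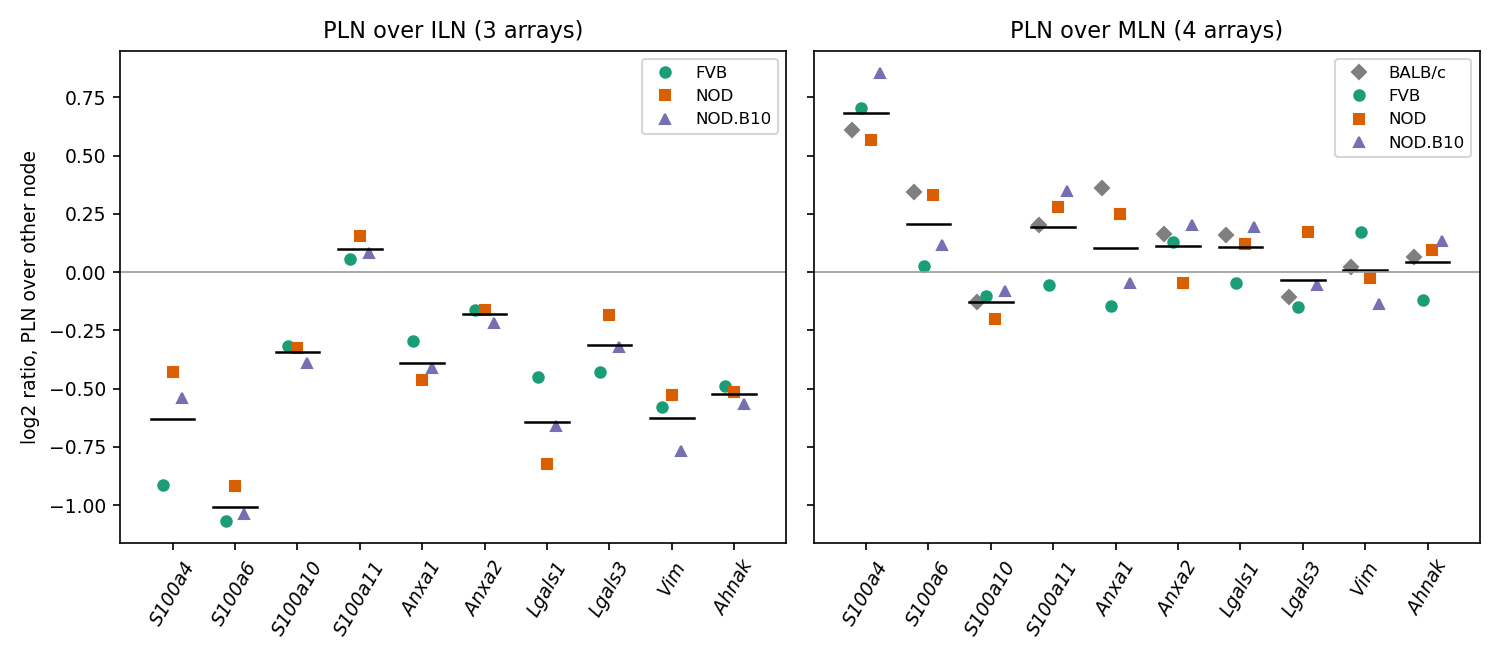
Log2 ratio of each member on each array, PLN over ILN on the left (3 arrays) and PLN over MLN on the right (4 arrays); each point is 1 array of 1 strain and the black bar is the mean. Against ILN 9 of the 10 members lie below 0 on all 3 arrays and S100a11 lies above it, while against MLN S100a4 stands apart at 0.57 to 0.85.

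PLN over MLN was not itself named in the choice of the members and was tested. ILN over MLN, for which they were picked, contains this ratio, so the test is not independent of the choice. limma called 0 of the 10 members at an adjusted p under 0.05, and 0% of all 29897 genes, although 4641 genes (15.5%) and 4 members had an unadjusted p under 0.05. S100a4 read 0.61 in BALB/c, 0.70 in FVB, 0.57 in NOD and 0.85 in NOD.B10. All 4 arrays were above 0 and apart from the ILN arrays, on which the same probe was below 0 in each strain. The mean was 0.68 ± 0.13 (SD, n = 4; SE of the fit 0.08), a level 1.61-fold higher in PLN than in MLN, with an adjusted p of 0.0825 in limma, the lowest value reached, which 6 genes shared. A lower ratio was found for 99.6% of the genes tested. Under the alternatives its adjusted p ranged from 0.0171 with array weights to 0.320 without the NOD array of the MLN. It was under 0.05 in 3 of 20, namely with array weights, with no background correction (0.0488) and with the FVB array of the ILN left out (0.0218).

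S100a6 read 0.34 in BALB/c, 0.03 in FVB, 0.33 in NOD and 0.12 in NOD.B10. It was above 0 on all 4 arrays, as 15.1% of all genes were, but near 0 in FVB. Its mean of 0.21 ± 0.16 (SD, n = 4) had an adjusted p of 0.234 in limma. S100a10 read -0.13 in BALB/c, -0.10 in FVB, -0.20 in NOD and -0.08 in NOD.B10. It was the only member below 0 on all 4 MLN arrays, against 15.2% of all genes, at a mean of -0.13 ± 0.05 (SD, n = 4; limma adjusted p = 0.260). S100a11 read 0.20 in BALB/c, -0.05 in FVB, 0.28 in NOD and 0.35 in NOD.B10. The FVB array thus lay on the other side of 0 from the remaining strains, and the mean was 0.19 ± 0.18 (SD, n = 4; limma adjusted p = 0.259).

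The remaining members lay close to 0 in PLN over MLN. Vim read 0.02 in BALB/c, 0.17 in FVB, -0.03 in NOD and -0.14 in NOD.B10, with a mean of 0.01 ± 0.13 (SD, n = 4) and a 95% interval of the fit from -0.13 to 0.15. Lgals1 read 0.16, -0.04, 0.12 and 0.19 in the same order, with a mean of 0.11 ± 0.11. Neither gene passed in limma (adjusted p = 0.952 and 0.446), and their arrays straddled 0. Ahnak had a mean of 0.04 ± 0.11, Anxa2 of 0.11 ± 0.11 and Lgals3 of -0.03 ± 0.14 (SD, n = 4). Anxa1 read 0.36 in BALB/c and 0.25 in NOD, but -0.15 in FVB and -0.05 in NOD.B10. The adjusted p of these 4 genes was 0.334 to 0.804 in limma.

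In PLN over MLN the values of Anxa1, S100a4, S100a6 and S100a10 did not overlap between the scanners, and those of the other members did. The earlier one read only BALB/c and NOD and the later one only FVB and NOD.B10 among the MLN arrays. Scanner, scan day and strain therefore cannot be told apart here. Anxa1 averaged 0.30 on the arrays of the earlier scanner and -0.10 on those of the later one, so its sign turned. S100a6 averaged 0.34 and 0.07. S100a4 averaged 0.59 and 0.78 and stayed above 0 on both, with an adjusted p of 0.255 in limma with scanner as a block. With each array centred on its median in place of loess, all 10 members lay above 0 in PLN over MLN, from 0.88 for Anxa2 to 1.83 for S100a4. That setting turned the sign of S100a10 and Lgals3, and in it the actin and membrane cytoskeleton list, the T cell list and the B cell list had medians of 1.02, 0.996 and 0.85 as well. All PLN samples were labelled with Cy5 and no dyes were swapped, so in PLN over MLN and in PLN over ILN a dye effect of a probe and a difference between nodes cannot be told apart.

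The ratio of ILN over MLN was taken through the PLN of the same strain, a quantity in which a dye effect of a probe cancels and a difference between PLN pools does not. In this description S100a4 stood highest, at 1.62 in FVB, 0.998 in NOD and 1.39 in NOD.B10. FVB was the highest and NOD the lowest, with a mean of 1.34 ± 0.31 (SD, n = 3) and a level 2.53-fold higher in ILN. S100a6 read 1.09 in FVB, 1.25 in NOD and 1.16 in NOD.B10, a mean of 1.17 ± 0.08 or 2.25-fold. The 2 genes reached similar ratios with different PLN values. By ratio S100a4 was lowest in MLN, between in PLN and highest in ILN in every strain with both arrays. S100a6 in PLN lay close to MLN. The place of PLN rests on ratios in which a dye effect cannot be told apart. Single-channel levels of S100a4 in NOD were 13.54 in MLN and 12.64 in ILN after scaling between arrays, and 11.67 and 13.14 with loess alone.

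Lgals1 read 0.41 in FVB, 0.94 in NOD and 0.85 in NOD.B10, so that FVB was lowest. Vim read 0.75 in FVB, 0.50 in NOD and 0.63 in NOD.B10, where FVB was highest. Ahnak read 0.37, 0.61 and 0.70 and Anxa1 0.15, 0.71 and 0.36 in the same order, each above 0 in the 3 strains. The means were 0.73 ± 0.29 for Lgals1, 0.63 ± 0.13 for Vim, 0.56 ± 0.17 for Ahnak and 0.41 ± 0.28 for Anxa1 (SD, n = 3). Lgals3, Anxa2 and S100a10 were smaller but also above 0 in each strain, at 0.30 ± 0.05, 0.28 ± 0.15 and 0.21 ± 0.09. S100a11 read -0.11 in FVB, 0.12 in NOD and 0.27 in NOD.B10, and so was the only member whose strains straddled 0.

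In all, 9 members were above 0 in each strain and 9 had ILN arrays that did not overlap the MLN arrays, against 13% and 3.61% of all genes, from which nothing is read since the members were picked for this contrast. The median of the members' strain means was 0.48. In the fit over all 7 arrays, which also uses the BALB/c array, the members' median was 0.53 and that of all genes tested -0.00065. No ILN array was read on the earlier scanner. Within the later scanner, S100a4 was at 1.41, S100a6 at 1.08, Lgals1 at 0.72 and Vim at 0.64.

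**Figure D2:**
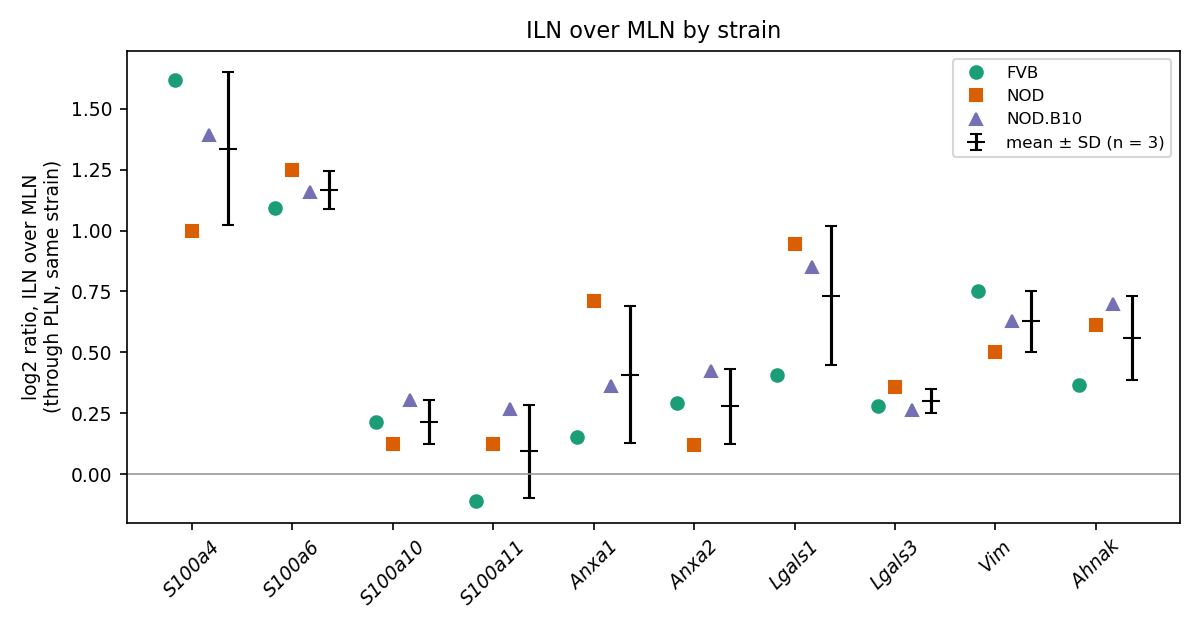
Log2 ratio of ILN over MLN through the PLN of the same strain for each member; points are the 3 strains and the black bar with caps is the mean ± SD (n = 3). S100a4 and S100a6 average 1.34 and 1.17, and S100a11 is the only member with a strain below 0.

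The levels in single channels, given as log2 intensity after loess and Aquantile scaling, were far more variable than the ratios. S100a4 in PLN was lowest at 11.92, had a median of 12.21 and was highest at 14.11, all 3 on the 7 PLN channels. In MLN it was 12.95 in BALB/c, 11.43 in FVB, 13.54 in NOD and 11.53 in NOD.B10, and in ILN it was 12.83 in FVB, 12.64 in NOD and 12.64 in NOD.B10. Both arrays of the earlier scanner were high in both channels, and the NOD PLN level was 14.11 on the MLN array and 12.21 on the ILN array. The order of the mean levels was ILN, PLN and MLN (12.71 ± 0.11, 12.63 ± 0.85 and 12.36 ± 1.05, SD), and neighbours in it did not differ beyond their spread. With loess alone the ILN levels of 13.01 to 13.14 lay above all PLN levels (12.10 to 12.89) and all MLN levels (11.61 to 12.19).

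S100a6 was also ordered ILN, PLN, MLN by its median with loess alone (11.57, 10.66 and 10.61), although after Aquantile scaling MLN was above PLN (11.30, 10.38 and 10.85 for ILN, PLN and MLN). On that scale its 3 ILN levels ranged from 11.11 to 11.76, inside the PLN range of 9.92 to 12.44 and the MLN range of 9.90 to 12.10. Vim ranged from 11.83 to 13.65 in PLN, 12.03 to 13.68 in MLN and 12.50 to 12.64 in ILN, so the nodes overlapped. Lgals1 ranged from 10.24 to 12.99 in PLN, 10.42 to 12.83 in MLN and 11.06 to 12.28 in ILN. For both genes PLN and ILN differed within each array but overlapped between arrays.

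After Aquantile scaling the ILN levels of Anxa1, at 9.26 to 9.29, lay just above the MLN levels, which ended at 9.25, though the PLN levels reached 9.61. With loess alone the ILN levels, from 9.32, overlapped the MLN levels, which reached 9.77. S100a10 ranged from 10.44 to 11.92 in PLN, 10.53 to 12.12 in MLN and 10.97 to 11.28 in ILN. S100a11 ranged from 8.57 to 10.28, 8.22 to 10.07 and 8.68 to 8.77 in the same order of nodes. Both S100 genes had the narrowest spread in ILN, where all arrays came from the later scanner. Anxa2 ranged from 8.14 to 8.67, 8.01 to 8.72 and 8.498 to 8.71, and Lgals3 from 9.75 to 10.71, 9.90 to 10.70 and 10.09 to 10.41. Ahnak ranged from 8.31 to 9.44 in PLN, 9.15 to 9.50 in MLN and 8.87 to 9.95 in ILN, and its lowest values in PLN and ILN came from the same array, that of NOD.B10.

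**Figure D3:**
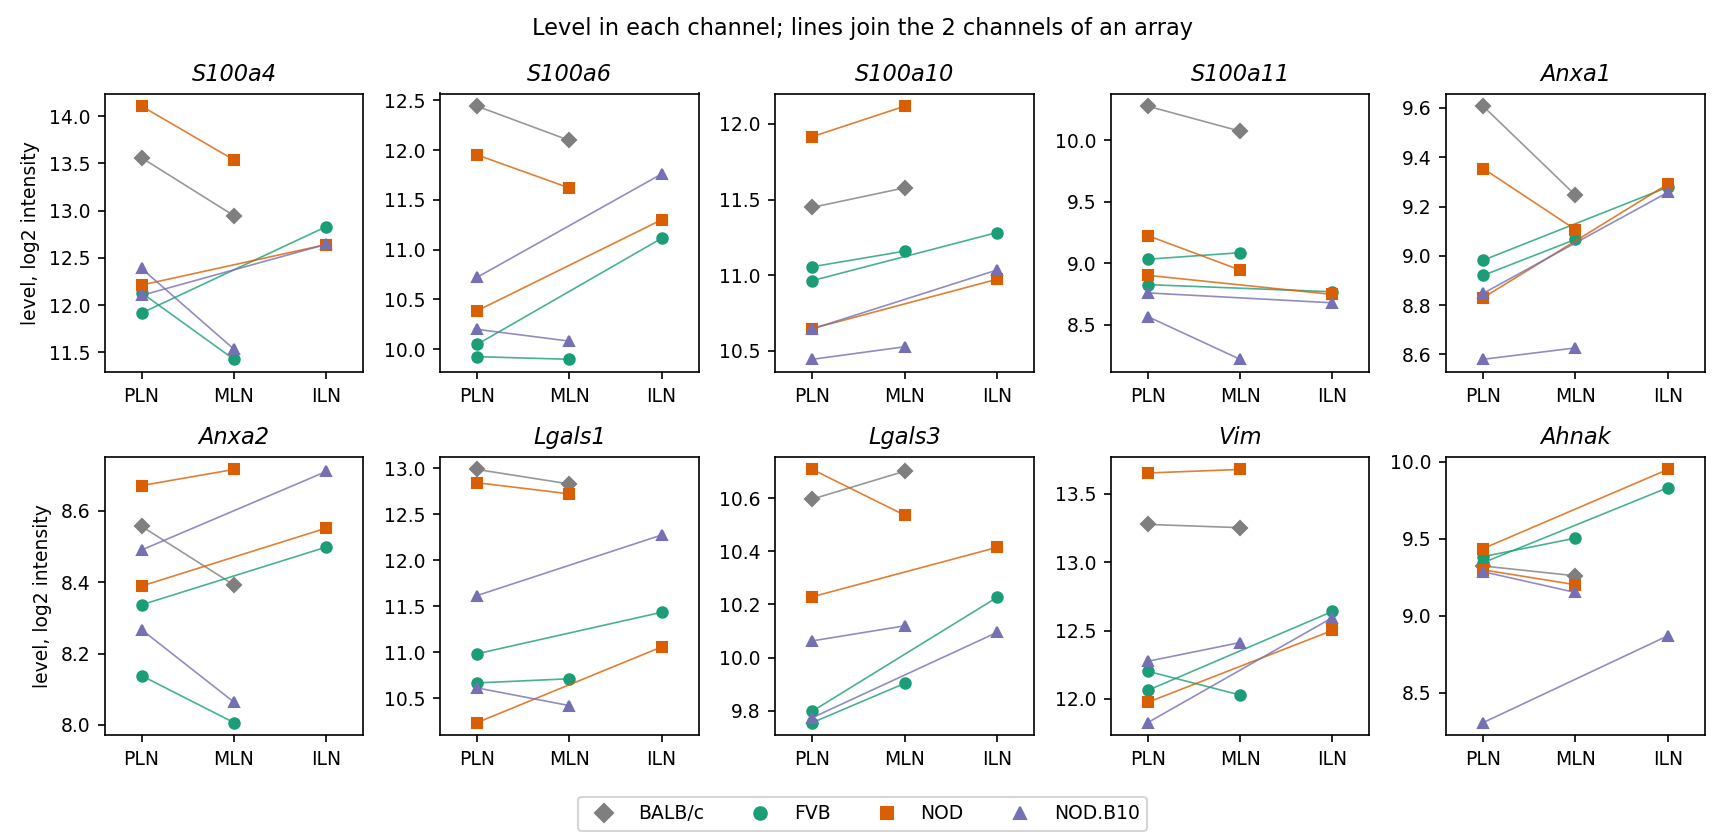
Level of each member as log2 intensity in each channel, with lines joining both channels of an array and colours and symbols for the strains; each panel has its own axis. Lines from PLN to ILN climb for 9 members and descend slightly for S100a11, while the height of a line depends on the array, as for S100a4 in NOD at 14.11 and 12.21 in PLN.

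Strain background was not used to choose the members and was tested in a limma fit that separates NOD and NOD.B10 from the other strains. In PLN over MLN no member passed (0 of 10, and 0% of all genes, with 783 genes at an unadjusted p under 0.05), and the adjusted p was 0.987 or higher for each. The sizes ran from -0.18 ± 0.12 for Vim to 0.24 ± 0.12 for S100a11 (SE of the fit, NOD background minus the others). In PLN over ILN no member passed either, against 0.499% of all genes. S100a4 came nearest, with a ratio in NOD and NOD.B10 above that in FVB by 0.43 ± 0.16 (SE of the fit; limma adjusted p = 0.419), and FVB gave a single array there. Lgals1 went the other way by -0.29 ± 0.15 (adjusted p = 0.656).

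Across the 7 arrays the members moved largely together, but they were picked for high ILN values, which gives them a shared step in advance. Pearson's r between pairs of members ranged from 0.15 to 0.98 over 45 pairs, with a median of 0.85, as a description over arrays that share the node groups, the PLN dye and the scanners. Nothing is read from the size of r, here or for the genes named below, and r of other gene pairs was not computed. Ahnak (r = 0.99) and S100a6 (0.98) followed the median of the other members most closely and S100a11 least (0.53). Of 608 named genes whose ratios spanned at least 1 on the log2 scale, those most like the members' median were Cyp26b1, which degrades retinoic acid (r = 0.98), Pdgfrl (0.94), the ligand gene Wnt10a (0.93), the high endothelial venule gene Glycam1 (0.93) and the carbonyl reductase gene Cbr2 (0.93). Cyp26b1 read -1.42, -1.27 and -1.22 over ILN in FVB, NOD and NOD.B10, and 0.13, -0.16, -0.08 and 0.18 over MLN in BALB/c, FVB, NOD and NOD.B10. That is a step against ILN alone, whereas Glycam1 (-0.15 over ILN and 0.62 over MLN) differed mainly against MLN, and its sign over ILN turned with median centring.

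The relatives of the members are described by their calls and medians, and at the low share of genes called a count of 0 is near the background. In PLN over ILN limma called 1.96% of all genes, and 0.462% as lower in PLN, whereas 0 genes were called with median centring and 32 in the deposited values, so the calls given here for other genes hold for the loess scale. Of 12 other S100 genes measured, 0 rose and 0 fell over ILN, with a median of 0.09 and a range from -0.18 to 0.27. Only 5 of them were well above background in every PLN channel and 8 in every ILN channel. Their median was 0.05 to 0.26 under the other scalings, with 0.25 at offset 0. S100a5, which stands between S100a4 and S100a6, was at 0.05 over ILN and -0.01 over MLN on the loess scale, with the sign over ILN turned by median centring and in Agilent's LogRatio. S100a9, a calprotectin subunit of neutrophils, was at 0.09 over ILN and 1.35 over MLN (limma adjusted p = 0.246 for the latter). Of 9 other annexins 1 rose, Anxa3 at 0.38 ± 0.07 (SE of the fit, n = 3; limma adjusted p = 0.0412), and of 6 other galectins and galectin-binding genes 1 rose, Lgals3bp at 0.47 ± 0.08 (adjusted p = 0.0254). Neither family had a gene that fell.

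Of 34 genes of the actin and membrane cytoskeleton, 0 rose and 1 fell in PLN over ILN, and the list median was -0.08, which became 0.01 with median centring. The gene that fell was Lmna, which encodes the nuclear filament lamin A, at -0.43 ± 0.07 (SE of the fit, n = 3; limma adjusted p = 0.0179). The smooth muscle myosin light chain gene Myl9 was at -0.67 and did not pass. Tmsb4x went the other way, at 0.39 over ILN and -0.77 in ILN over MLN, and did not pass either. Over ILN it read -0.08 in FVB, 1.16 in NOD and 0.10 in NOD.B10. Of 25 effector and memory lymphocyte genes, 0 rose and 0 fell over ILN, where the median was -0.01. Those with the largest ratios over ILN were Tbx21 at 0.46, Ifng at -0.32 and Fasl at 0.31. In ILN over MLN they were at -0.24, 0.34 and -0.12, so Tbx21 and Fasl went opposite to the members. In ILN over MLN 1 of these 25 rose, against 0.0435% of all genes called higher in ILN. It was Ccl5, a chemokine of memory CD8 T cells and natural killer cells, at 0.71 (limma adjusted p = 0.0267), and like S100a4 it stood above 0 in PLN over MLN, at 0.52 (adjusted p = 0.0825). Cd44, the usual surface marker of effector and memory T cells, was at -0.05 over ILN and -0.06 over MLN.

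Markers of several cell types moved in the same arrays, and their part in the members' ratios was not tested. Naive T cell genes fell for 5 of 12 and rose for 0 in PLN over ILN, with a median of -0.33. In PLN over MLN these 12 genes lay between -0.41 and -0.06, with a median of -0.19, where the members' median was 0.11. In ILN over MLN the naive median was 0.08 and that of the members 0.53. Over ILN the naive gene Dapl1 was at -0.62 ± 0.07 and the interleukin 7 receptor gene Il7r at -0.50 ± 0.09 (SE of the fit, n = 3; limma adjusted p = 0.0042 and 0.0268). The summed level of the naive T cell genes was 12556 to 33865 intensity units in PLN, 14542 to 40577 in MLN and 16391 to 19646 in ILN. Summed levels, here and below, are taken between arrays. The PLN and MLN ranges include the earlier scanner, on which no ILN array was read. Of 9 T cell genes 1 fell (median -0.27, summed 15504 to 38412, 16508 to 40314 and 19608 to 24692 in PLN, MLN and ILN). Natural killer and cytotoxic genes fell for 2 of 10, Klrd1 at -0.72 and Nkg7 at -0.46, with a median of -0.21 and summed levels of 2163 to 3990, 2175 to 3994 and 3147 to 3910. Of 8 type 17 and innate lymphoid genes 1 fell, Cd163l1 at -0.94. Of 9 B cell genes 0 passed, and their median was 0.01.

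Genes of macrophages, fibroblasts and lymphatic vessels were more often higher than lower in PLN over ILN, opposite to the members. Monocyte and macrophage genes rose for 6 of 13 in PLN over ILN, led by the scavenger receptor gene Marco at 1.76 and Adgre1 at 1.11, and 1 fell, the monocyte receptor gene Ccr2 at -0.63. Their summed level was 43894 to 94416 in PLN, 73939 to 137039 in MLN and 30715 to 52113 in ILN. Fibroblast genes rose for 4 of 14 and fell for 0, with summed levels of 12883 to 29373, 15835 to 39543 and 10389 to 12343. Lymphatic endothelial genes rose for 3 of 6. Dendritic cell genes rose for 1 and fell for 1 of 12, the latter being Cd207 of Langerhans cells at -0.56. Of 10 neutrophil genes 0 passed.

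Smooth muscle and pericyte genes were the list other than lymphocyte lists with more than 1 gene lower in PLN, since Tagln at -0.93 and Mylk at -0.50 fell among 9 (median -0.02). Their summed level was 5733 to 6822 in ILN, above 4571 to 5642 in PLN and 4250 to 4801 in MLN. Of 10 blood endothelial genes 1 rose and 1 fell, and 0 of 10 white adipose, 0 of 10 skin and mammary, 0 of 4 mesothelial and 0 of 3 erythroid genes passed. All 9 smooth muscle genes and all 13 macrophage genes were well above background in every ILN channel, whereas Dsp of stratified epithelium was above it in none. The adipose median differed in sign between FVB (-0.27) and NOD or NOD.B10 (1.32 and 1.58) over ILN, while the members' median was -0.44, -0.44 and -0.47. Acinar genes, which mark pancreas, rose for 7 of 10, with list medians of 3.61 to 4.94 over ILN. Over MLN their median was 0.17 in BALB/c and 3.09 to 5.17 in the other strains, and S100a4 was at 0.61 in BALB/c and at 0.57 to 0.85 in the others. In PLN over MLN 0 genes of any of these lists passed, as for all 29897 genes tested, so nothing is read from this count. List medians there, on the loess scale, ran from -0.19 for naive T cell genes to 3.43 for acinar genes, with 1.02 for erythroid genes.

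**Figure D4:**
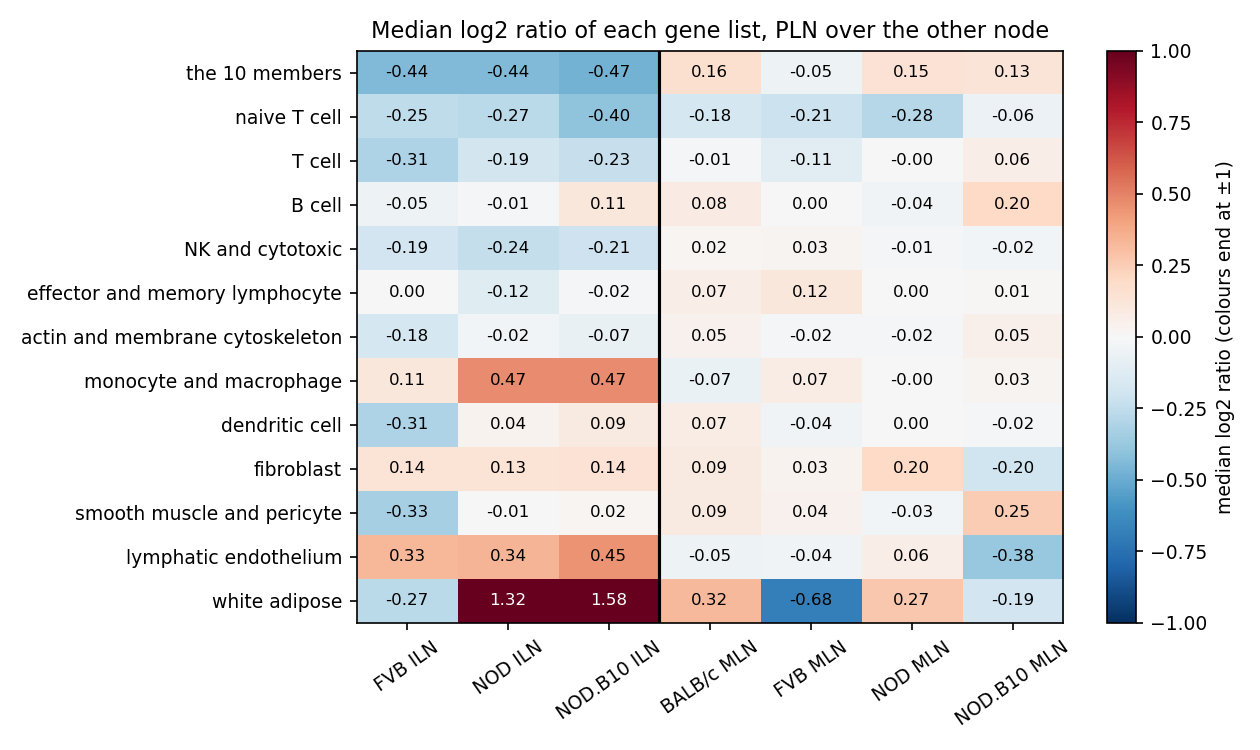
Median log2 ratio, PLN over the other node, of the 10 members and of 12 gene lists on each array, with the ILN arrays left and the MLN arrays right of the line; red is higher and blue lower in PLN. The members read -0.44, -0.44 and -0.47 over ILN, where the naive T cell list reads -0.25 to -0.40 and the macrophage list 0.11 to 0.47. Over MLN the members read -0.05 to 0.16, the naive T cell list -0.28 to -0.06 and the macrophage list -0.07 to 0.07.

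The probes of the 2 genes measured more than once were set side by side. Both Anxa2 probes were below 0 on all 3 ILN arrays, and on the MLN arrays they differed in sign in BALB/c only, at 0.16 and -0.12. All 6 Ahnak probes were below 0 on each of the 3 ILN arrays, the highest value being -0.03. On the MLN arrays they scattered around 0, and A_52_P496566 spanned the most, from -0.87 in NOD to 0.48 in FVB. The files place the 6 probes on chromosome 19 between 8185916 and 8273303, in a genome build that the file headers do not name.

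**Figure D5:**
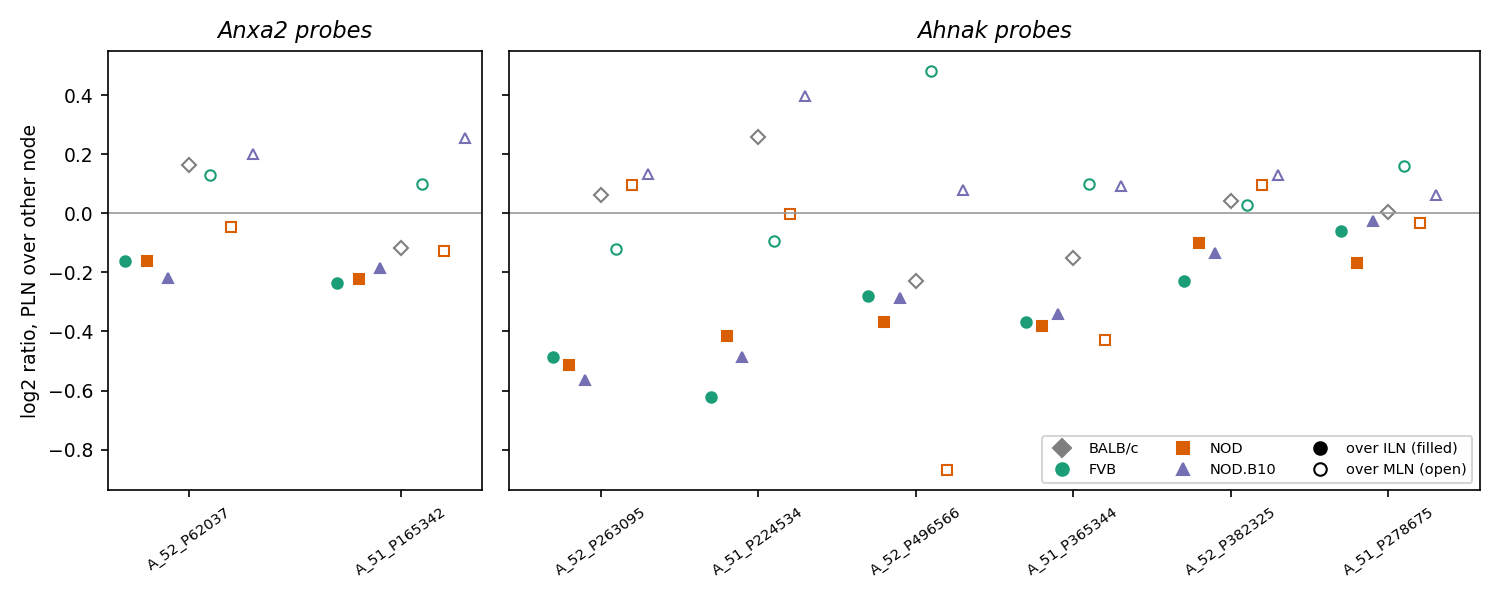
Log2 ratio of PLN over the other node for each Anxa2 and Ahnak probe, with filled symbols for ILN arrays and open symbols for MLN arrays, and shapes and colours for strains. Filled symbols lie below 0 for all 8 probes, and the widest scatter over MLN is that of A_52_P496566, from -0.87 to 0.48.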

How the data were processed

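RNA of pooled nodes was measured on 7 dual-dye Agilent arrays. The deposited scanner files come from Agilent Feature Extraction 8.5.1.1, per the file headers, and give spot and background values as linear intensity. The LogRatio is a log10 of red over green computed by that software, per the file headers. The deposited value table holds log2 values, found to be the log2 ratio of processed red over green signals (r of at least 0.99989 per array) less 0.0018 to 0.0798, with column medians of 0.0073 to 0.0935. The reason for these constants is unknown.

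Background was corrected with normexp (offset 50), arrays were normalized by loess with control and outlier spots at weight 0, outliers were left out and spots of a probe averaged, in limma 3.58.1 under R 4.3.3 (data.table version 1.17.8). Of 41174 probes, 22072 were named through accessions in a RefSeq table of GRCm38.p6, 1682 by the files' descriptions, and 17420 kept the probe name. Probes well above background in a channel on 3 or more arrays were kept (35817, 87.0%), and the brightest probe stood for a gene. A two-coefficient limma fit over 7 arrays (5 residual and 3.85 prior degrees of freedom) gave both PLN ratios and their difference, and a further fit split them by strain background. Tests were two-sided with Benjamini-Hochberg adjustment over all genes. The fit was tested on simulated data. Summed list levels are sums of linear intensity after loess and Aquantile scaling.

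The members, gene lists, tests and alternatives were chosen with earlier results of these data known. All members are named. Per list the text names up to 3 genes with the largest absolute PLN over ILN log2 ratio. S100a5, S100a9, Ccl5, Cd44 and Ccr2 were named after their values were seen, and Dsp because it was above background in no ILN channel. The alternatives were other background corrections, centring, scaling, filters, probe averages, array weights, scanner, strain block and leaving out each array. Protein sequences were not used here. A gene that the naming rule covers is not reported here.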

Additional observations from a re-analysis of the deposited data

Results flagged for a closer look

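Of 30 groups of 4 or 7 values checked for a value far from the others (ratios over MLN, and levels in PLN and MLN), 2 held one, and chance gives about 1 in 20. The S100a11 level in PLN of the BALB/c array, 10.28, lay far above the other PLN levels, which ended at 9.22. The level of the paired MLN channel was 10.07, so the ratio on that array was 0.20. With loess alone, without Aquantile scaling, the value was 9.82 and the next highest 9.73, so it no longer stood apart. The Ahnak level in PLN on the NOD.B10 array of the ILN, 8.31, lay far below the other PLN levels, which began at 9.29, and the ILN channel of that array read 8.87. With loess alone it was 8.46 and the next lowest 8.64.

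Vim differed in sign between strain backgrounds in PLN over MLN, above 0 in BALB/c and FVB and below 0 in NOD and NOD.B10. The difference, NOD background minus the others, was -0.18 ± 0.12 (SE of the fit) and did not pass in limma (adjusted p = 0.987).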

How the results depend on the processing

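All 10 members kept their sign in PLN over ILN and in ILN over MLN under each of the 19 alternatives, and S100a4 in PLN over MLN under each of 20 (0.59 to 1.83). In PLN over MLN the sign turned for S100a10 (0.94) and Lgals3 (0.98) with median centring, Ahnak (-0.028) in the deposited values, Anxa1 (-0.096 and -0.096) with scanner as a block and within the later scanner, Lgals3 (0.0036) and Vim (-0.046) with the FVB array of the MLN left out, and Lgals3 (0.034) and Vim (-0.0010) within the earlier scanner. Leaving out an array gave -0.10 to 0.0036 for Lgals3 and -0.046 to 0.057 for Vim. S100a4 passed with no background correction (adjusted p = 0.0488), with array weights (0.0171) and with the FVB array of the ILN left out (0.0218).

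Counts of called genes moved more. In PLN over MLN (0) they were 37 with no background correction, 189 with array weights, 20 within the later scanner, 2 with strain as a replicate block, and 0 to 46 leaving out an array. In PLN over ILN (585) they were 49 with offset 0, 0 with median centring, 65 with Agilent's LogRatio, 32 in the deposited values, 1561 with array weights, 332 within the later scanner, 87 with the strain block and 32 (NOD.B10 array of the ILN left out) to 737 leaving out an array. In ILN over MLN (76) they were 3, 0, 12 and 0 in the first 4 of these, 115 with the strictest filter, 178 with array weights, 18 with scanner as a block, 7 within the later scanner, 26 with the strain block and 15 to 88. For NOD background against FVB over ILN (149) they were 4, 0, 0 and 0 in the same first 4, 83 with no background correction and 0 to 668, and over MLN (0) they were 0 to 78. The cause was not tested.

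The members' median over MLN was 1.03 with median centring. Over ILN it was -0.49 with offset 0, -0.36 with median centring, -0.53 with LogRatio, -0.57 in the deposited values, -0.37 as a mean of probes and -0.43 with the strain block. In ILN over MLN it was 1.33 with median centring, which moved the median of all genes by 0.13 there and by -0.11 between NOD background and FVB. The strain medians moved to 0.40 over MLN and -1.48 over ILN with median centring, to 0.096 and 0.13 over ILN with LogRatio and deposited values, and spanned -0.0071 to 0.20 and -0.065 to 0.025 leaving out arrays. The strain contrast over ILN could not be fitted without the FVB array, and probe means, weights, scanner and strain block were not run for strain contrasts. Arrays of a strain share no stated number, and their deviations correlated at 0.14, 0.08 and 0.12 in FVB, NOD and NOD.B10, so strain was not a term of the main model, although the ILN over MLN values printed per strain do pair arrays of a strain.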
